A study of Arabidopsis thaliana with 6 samples.

Results

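The genes described here are COR15A (AT2G42540), COR15B (AT2G42530), COR47 (AT1G20440) and KIN2 (AT5G15970) of Arabidopsis thaliana. They were taken as the probe sets that the platform's probe table pairs with one of these genes alone, which gave 4 genes with 1 probe set each, of 16411 genes that had a probe set of their own and matched RefSeq, on an array of 38310 probe sets other than controls. A probe set is the group of array probes summarised into 1 signal. COR stands for cold-regulated. No array in the study came from cold-treated or ABA-treated tissue, so the name describes what is known of the genes and could not be checked against these data.

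COR genes are switched on in leaves by cold, drought and the stress hormone abscisic acid (ABA). In cold the CBF transcription factors act on them, and under ABA a cascade of receptors, phosphatases, kinases and bZIP factors does. Their products are small, very hydrophilic proteins. COR15A and COR15B enter the chloroplast stroma and protect membranes during freezing, COR47 is a dehydrin, and KIN2 (also called COR6.6) is a small protein of the cytosol.

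All 6 arrays were of wild-type cotyledons from 6-day-old seedlings grown at 22 °C. They were cultured in VISUAL, a system that turns leaf cells into vascular cells, with 2,4-D (an auxin, 1.25 mg/L), kinetin (a cytokinin, 0.25 mg/L) and bikinin (10 µM), which blocks the GSK3-like kinases that hold back brassinosteroid signalling. The medium held 5% glucose or 5% sucrose, each was sampled at 0, 24 and 48 h, and each of the 6 groups was 1 array without a replicate. No culture lacked the hormones or bikinin, so induction, excision, medium and time cannot be told apart. Times follow the sample titles; a separate time label differs on 5 of the 6 arrays and gives 72 h for all 3 sucrose arrays, the 0 h one included.

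Signals are given as log2 values after each array was scaled to a common trimmed mean. A floor was set at 4.90, the 40th percentile of all signals, below which a value is treated only as low. Of the 4 genes, 3 were above the floor on all 6 arrays, and COR15B was above it on the 0 h arrays alone. COR15B therefore passed the filter only through the time at which it was high, and it is given as a bound with no test. The arrays' deposited medians ran from 5.33 to 5.92. Bacterial spike controls averaged 11.3 and 11.1 on the 0 h arrays and from 10.4 to 10.7 on the cultured ones, and background controls had medians of 5.88 and 5.37 at 0 h and from 4.52 to 5.10 in culture.

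The tissue label was checked on green tissue markers: 6 of 20 listed markers had a named probe set, and all 6 were above the floor on both 0 h arrays. Their summed linear signal was 12366 and 11765 at 0 h. In culture it was 1126 and 856.4 in glucose and 383.2 and 384.5 in sucrose at 24 and 48 h. Each of the 6 fell at both times in limma, where 19.8% (24 h) and 19.9% (48 h) of all tested probe sets were called lower. The green tissue signal was thus lower in culture than at 0 h, as the COR genes were. From 24 to 48 h the sum went down in glucose and was level in sucrose, while COR15A and KIN2 read lower at 48 h in both. On the sucrose 24 h array only 3 of the 6 markers were above the floor, and they did not move alike. PSAE-1 read 106.8 and then 61.3 at 48 h, LHCB4.1 56.4 and 66.1, and RCA 155.0 and 157.3 on the linear scale. At 24 h the sum was lower in sucrose than in glucose, as COR47 and KIN2 were, while COR15A was higher. The part of green tissue in the falls described here was not tested. In whole cotyledons, fewer cells of a type and less RNA per cell cannot be told apart.

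The first question was what happened to the COR genes as the cotyledons entered culture. All 4 were high before induction and low afterwards in both sugars. COR15A, COR47 and KIN2 were each lower on every cultured array than on either 0 h array, so their groups did not overlap. On signals raised to the floor the same held for 29.2% of all 25826 tested probe sets. That share includes probe sets above the floor at 0 h alone, like COR15B, for which the filter fixed the outcome. COR15A, COR47 and KIN2 passed as lower at 24 h and at 48 h, where 19.8% and 19.9% of the tested probe sets were called lower (44.0% and 42.0% in either direction). The median log2 difference was 0.10 over all tested probe sets at 24 h and 0.13 at 48 h.

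**Figure D1:**
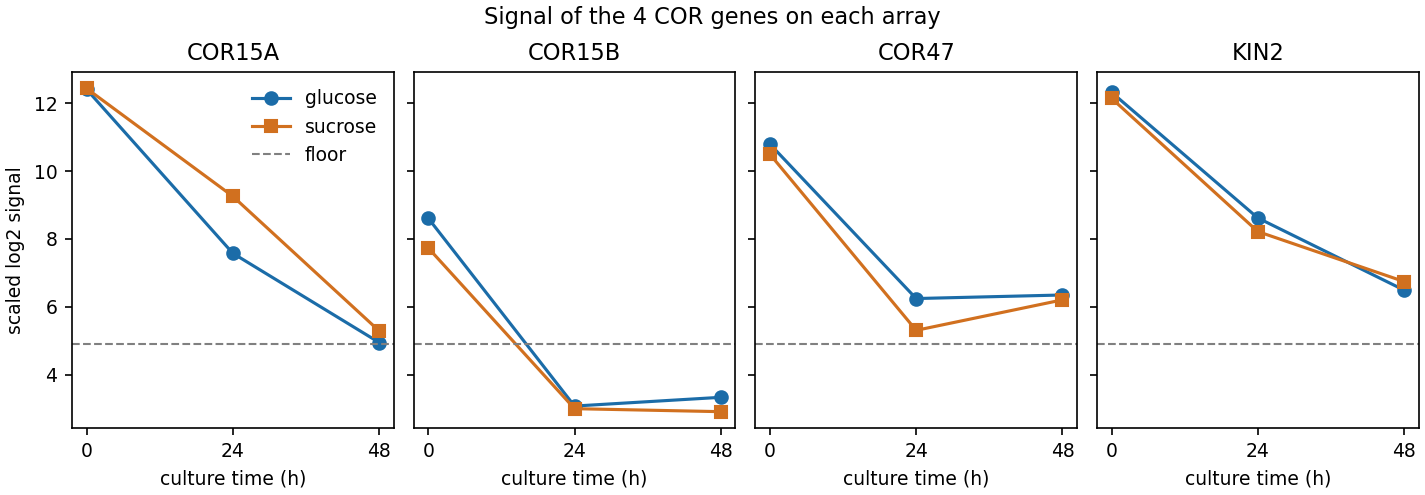
Scaled log2 signal (vertical axis) of each COR gene against culture time in hours, with 1 point per array, circles for glucose and squares for sucrose. The dashed line is the floor at 4.90; COR15A and KIN2 dropped in both intervals, COR47 lay between 5.31 and 6.35 on the 4 cultured arrays, and COR15B was below the floor on all 4.

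COR15A had a log2 signal of 12.40 on the glucose and 12.43 on the sucrose 0 h array. At 24 h it read 7.58 in glucose and 9.26 in sucrose, and at 48 h 4.95 and 5.29. The order of the levels was therefore 0 h, 24 h sucrose, 24 h glucose and then the 48 h pair. On a linear scale the 0 h signals were 5419 and 5521, and 3.53% of the glucose and 11.1% of the sucrose signal were left at 24 h. At 48 h 0.710% was left in sucrose. The glucose 48 h value lay only 0.06 above the floor, and as deposited (4.90) it was below that array's median background control (5.10), so differences that use it are not exact.

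Over both sugars COR15A fell by 4.00 ± 0.35 at 24 h (SE, 2 arrays against 2; adjusted p = 0.0027 in limma). At 48 h it fell by 7.29 ± 0.35 (adjusted p = 0.00097). The first is 16-fold. The second shrank to -5.96 with the floor at the 60th percentile (adjusted p = 0.0025), which lies above both 48 h values. COR15A ranked 185 from the bottom of the 25826 tested probe sets at 24 h.

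COR15B, the tandem paralog of COR15A on chromosome 2, read 8.61 on the glucose and 7.74 on the sucrose 0 h array. On the cultured arrays its scaled signals were 3.08 and 3.34 in glucose and 3.01 and 2.92 in sucrose, at 24 and 48 h, all below the floor. Set against the floor it was lower by at least 9.70-fold at 24 h and at 48 h, and no order among the cultured arrays can be read. Against its own 0 h array the bound was 13.1-fold in glucose and 7.17-fold in sucrose.

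COR47 read 10.79 and 10.50 at 0 h on the glucose and sucrose arrays. At 24 h it was 6.25 and 5.31, and at 48 h 6.35 and 6.21. All of its fall was therefore present at 24 h, when 4.28% of the linear signal was left in glucose and 2.75% in sucrose; at 48 h the shares were 4.60% and 5.12%. COR47 fell by 4.87 ± 0.31 at 24 h (29.2-fold, adjusted p = 0.0018 in limma) and by 4.36 ± 0.31 at 48 h (20.6-fold, adjusted p = 0.0013). Its rank from the bottom went from 55 of 25826 at 24 h to 190 at 48 h.

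KIN2 read 12.32 and 12.14 at 0 h, 8.62 and 8.22 at 24 h, and 6.49 and 6.75 at 48 h, glucose before sucrose in each pair. The sugars differed by at most 0.40 at any time. Of the 0 h linear signal, 7.70% was left in glucose and 6.59% in sucrose at 24 h, and 1.77% and 2.38% at 48 h. KIN2 fell by 3.81 ± 0.24 at 24 h (14.0-fold, adjusted p = 0.0018 in limma). At 48 h it fell by 5.61 ± 0.24 (48.8-fold, adjusted p = 0.00097). Its ranks from the bottom were 238 and 35.

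**Figure D2:**
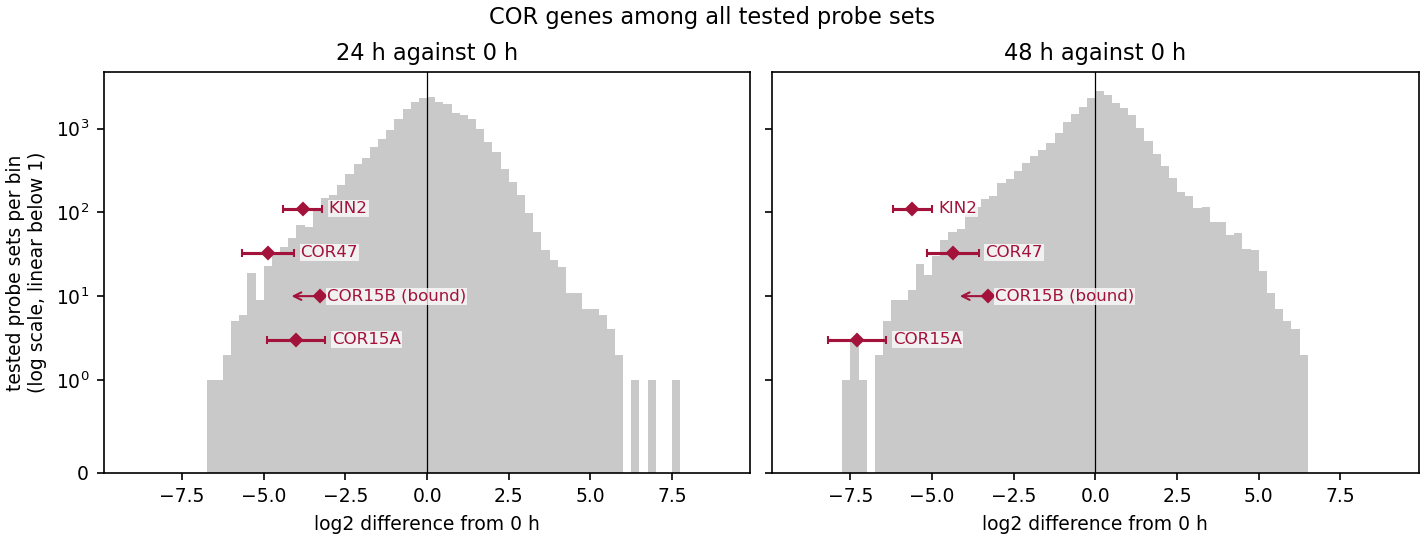
Numbers of tested probe sets (vertical axis, log scale above 1) by log2 difference from 0 h (horizontal axis), with the COR genes as diamonds and their 95% intervals; the height of a diamond has no meaning. COR15B has an arrow in place of an interval because it is a bound; COR15A moved from -4.00 at 24 h to -7.29 at 48 h, COR47 from -4.87 to -4.36 and KIN2 from -3.81 to -5.61.

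These calls rest on both arrays of a time. With either array of a culture time left out, 1 array is left there. Calls at that time were then lost for all tested probe sets, not for these genes alone. The differences of COR15A, COR47 and KIN2 kept their sign. With 1 array left out at a time, COR15A ran from -4.67 to -3.33 at 24 h and from -7.96 to -6.63 at 48 h. COR47 ran from -5.26 to -4.47 and from -4.76 to -3.97, and KIN2 from -4.14 to -3.48 and from -5.93 to -5.28. Scaling on the spike controls, chosen after seeing the data, raised the median of all tested probe sets at 24 h from 0.10 to 0.79, and the log2 differences of COR15A, COR47 and KIN2 at 24 h were then -3.16, -4.02 and -2.97, still past the threshold. Of all calls at 24 h 45.0% were lower, against 32.6% from the signals as deposited and 15.2% with spike control scaling, so the background share depends on the scaling. At 48 h it was 47.3%, against 17.7% with spike control scaling.

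The next question was whether the genes went on falling on the second day. COR15A and KIN2 had lower values at 48 h than at 24 h in both sugars, while COR47 did not. No probe set passed for this comparison (0.0% of 25826; 4872 had an unadjusted p under 0.05 and the smallest adjusted p was 0.082 in limma). COR15A differed by -3.29 ± 0.35 between 48 and 24 h (95% interval -4.18 to -2.41) and KIN2 by -1.80 ± 0.24 (-2.39 to -1.20), each with an adjusted p = 0.084. With the floor at the 60th percentile the COR15A difference was -1.96 (adjusted p = 0.132). KIN2 ranked 118 from the bottom of all tested probe sets. COR47 differed by 0.50 ± 0.31, with an interval from -0.29 to 1.29 (adjusted p = 0.432).

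For KIN2 the 48 h array was 4.36-fold lower than the 24 h array in glucose and 2.77-fold lower in sucrose. For COR15A it was 15.6-fold lower in sucrose, and in glucose the log2 difference was -2.63, or -1.12 with the floor at the 60th percentile. COR47 differed by 0.10 in glucose and 0.90 in sucrose on the log2 scale, both towards a higher value at 48 h. Tested with the 4 cultured arrays kept apart, none of these steps passed (adjusted p from 0.127 to 0.894 over the 3 genes and both sugars in limma), as no probe set did in either sugar (0.0% each; 5551 in glucose and 3799 in sucrose had an unadjusted p under 0.05). Here the single residual degree of freedom came from the 0 h pair. In log2 terms, 44.5% of the 48 h fall of COR15A was present at 24 h in sucrose. For KIN2 the share was 63.5% in glucose and 72.7% in sucrose, and for COR47 102% and 121%.

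The calls of this comparison moved with the settings. With no floor and no filter COR15A passed (-3.29, adjusted p = 0.041 in limma), beside 108 probe sets called higher and 61 lower of 38310. Leaving out either 0 h array, which leaves 1 array at that time, also brought calls, for COR15A, KIN2 and other probe sets. With 1 array left out at a time, the difference ran from -3.96 to -2.63 for COR15A and from -2.12 to -1.47 for KIN2.

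The sugar question is the study's own: whether glucose and sucrose acted differently. None of the COR genes passed in a comparison of the sugars, and neither did any other probe set (0.0% over both culture times, at 24 h and at 48 h; 2613, 2955 and 4472 had an unadjusted p under 0.05 in limma). COR15A was the gene with the widest gap. It was 3.20-fold higher in sucrose at 24 h, a log2 difference of 1.68 ± 0.10 (95% interval 1.17 to 2.18, adjusted p = 0.266), at or above that of 99.2% of tested probe sets. At 48 h the gap was 0.34 ± 0.10 (-0.16 to 0.85, adjusted p = 0.367), with the glucose value near the floor, and the 0 h arrays differed by 0.03. The small SE of COR15A here reflects how close its 0 h pair happened to lie.

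COR47 went the other way at 24 h, 1.91-fold lower in sucrose (-0.94 ± 0.26, interval -2.22 to 0.34, adjusted p = 0.517), and differed by -0.14 at 48 h. The green tissue markers were also lower in sucrose at 24 h, with a summed signal of 383.2 against 1126. KIN2 differed by -0.40 ± 0.16 at 24 h (interval -1.20 to 0.40) and by 0.25 ± 0.16 at 48 h (-0.55 to 1.06), intervals that leave room for a difference in either direction. COR15B was below the floor in both sugars at both times, and no difference can be given. The change of the sugar difference from 24 to 48 h was -1.34 ± 0.14 for COR15A, 0.79 ± 0.36 for COR47 and 0.65 ± 0.23 for KIN2, with adjusted p-values of 0.276, 0.568 and 0.493 (0.0% of probe sets called, 3473 with an unadjusted p under 0.05).

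**Figure D3:**
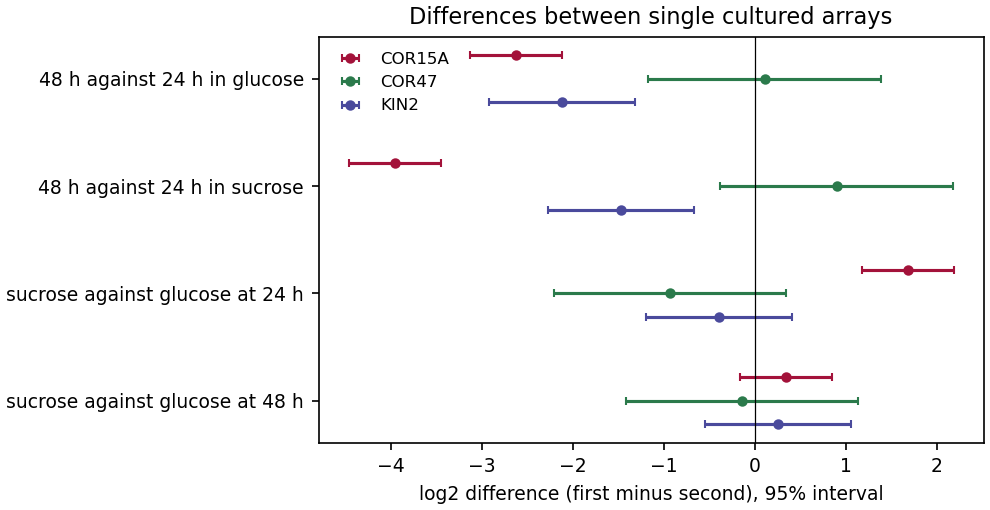
Log2 differences between single cultured arrays (horizontal axis, first named minus second) for COR15A, COR47 and KIN2, as points with 95% limma intervals. The COR15A and KIN2 points for 48 h against 24 h lie left of 0 in both sugars, and at 24 h COR15A is higher (1.68) and COR47 lower (-0.94) in sucrose; no adjusted p passed.

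The genes also differed in which transcripts they resembled. Likeness was measured as the root mean square distance between log2 profiles over the 6 arrays, each centred on its own mean, among 10569 other tested probe sets with 1 gene. The arrays share their 0 h to culture contrast, so many genes are alike, and the distances are a description. For COR15A the nearest were ECS1 (AT1G31580; 0.19), SWEET11 (AT3G48740; 0.59), a sucrose exporter gene of the phloem parenchyma, AT1G59865 (0.75), the farnesoic acid methyltransferase gene FAMT (AT3G44860; 0.79) and the glycosyltransferase gene UGT76E12 (AT3G46660; 0.83). ECS1, SWEET11 and UGT76E12 were above the floor on 4 of the 6 arrays.

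For COR47 the nearest profile was that of LHCB4.2 (AT3G08940; 0.20), a photosystem II antenna gene, followed by AT1G67920 (0.22), PSB27 (AT1G03600; 0.22), which acts in photosystem II assembly and repair, AT1G73480 (0.25) and UGT73B5 (AT2G15480; 0.31). For KIN2 they were AT1G67870 (0.21), UGT76E12 (0.23), the zinc finger repressor gene STZ (AT1G27730; 0.27), AT5G52050 (0.35) and AT3G22060 (0.38). No COR gene was among the 5 nearest of another. The closest to COR15A among them was KIN2, at a distance of 0.97 and rank 14, while COR47 had rank 268 at 1.80.

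**Figure D4:**
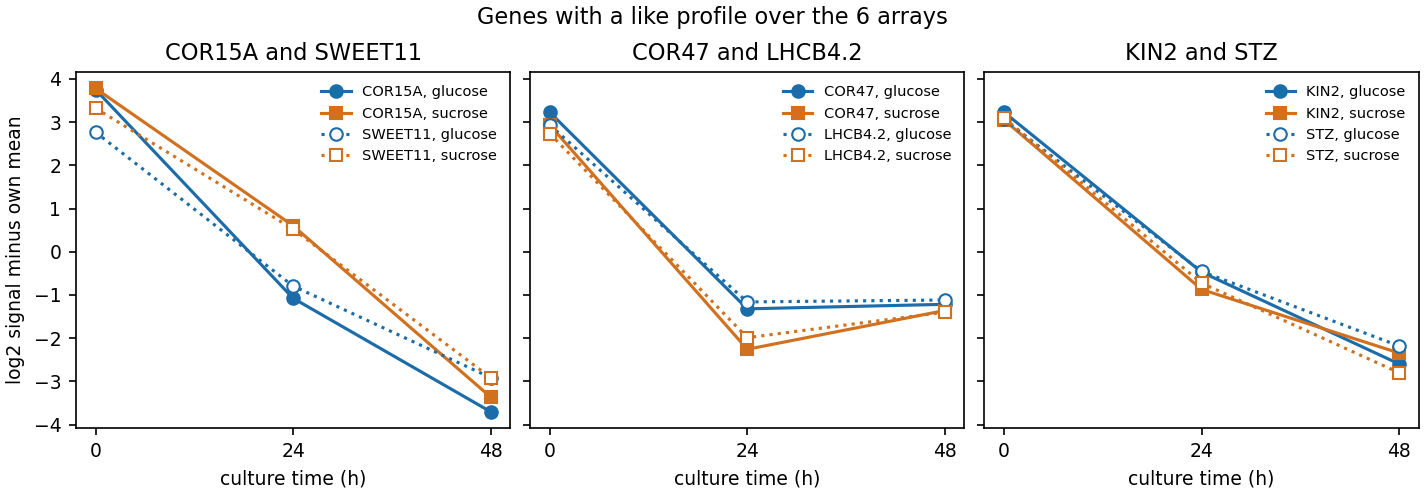
Log2 signal minus its own mean over the 6 arrays (vertical axis) against culture time, for COR15A with SWEET11, COR47 with LHCB4.2 and KIN2 with STZ, each the nearest or near profile that is also in a gene list used here. Solid lines and filled symbols are the COR gene, dotted lines and open symbols the other; values below the floor are set to it, as for SWEET11 at 48 h, and the COR47 panel shows both genes lower in sucrose at 24 h and level from 24 to 48 h in glucose.

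The genes that lie next to the COR genes were also read. In the RefSeq gene order of assembly TAIR10.1, COR15B and COR15A are adjacent on chromosome 2, KIN1 (AT5G15960) and KIN2 on chromosome 5, and COR47 and the dehydrin gene ERD10 (AT1G20450) on chromosome 1. ERD10 has no named probe set and was not analysed here. KIN1, a close relative of KIN2, read 7.33 and 6.70 at 0 h and between 2.76 and 3.18 in culture. Like COR15B it passed the filter only through 0 h, so it is given as a bound with no test, at least 4.34-fold lower at both times.

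Of the other neighbours, 4 were tested: 2 rose at both times and 2 did not pass in limma, beside 24.2% (24 h) and 22.1% (48 h) of all tested probe sets called higher. AT2G42520, beside COR15B, differed by 0.12 ± 0.23 at 24 h and 0.01 ± 0.23 at 48 h (adjusted p = 0.685 and 0.973 in limma). AT5G15980, beside KIN2, rose by 2.29 ± 0.33 and 1.58 ± 0.33 (adjusted p = 0.0065 and 0.017), and AT1G20430, beside COR47, rose by 2.17 ± 0.25 and 2.01 ± 0.25 (adjusted p = 0.0042 and 0.0039). AT1G20460, on the other side of ERD10, differed by -0.52 ± 0.28 at both times and did not pass, and AT2G42550, beside COR15A, was not tested. Probe sequences were not used here, so cross-hybridisation between COR15A and COR15B, or KIN1 and KIN2, was not tested. At 24 h COR15A lay 2.68 and 4.36 above the floor in glucose and sucrose while COR15B lay below it.

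Other genes of the cold and ABA pathways were followed through 4 lists of 156 genes, of which 15 had a probe set of their own and 12 of those passed the filter. Each list thus stands for a small share of its pathway. KIN1 and LTI30 passed it only through 0 h and are left out of the counts, which leaves 10. PIF7 stays in and is counted as a fall at both times. In culture it was above the floor on 1 array only, by 0.03, so the filter nearly fixed its calls. At 24 h 7 of the 10 fell, 1 rose and 2 did not pass in limma, beside 19.8% of all tested probe sets called lower, and the median was -1.62 against 0.10 over all tested. At 48 h 6 fell, 1 rose and 3 did not pass, beside 19.9% called lower, and the median was -1.11 against 0.13. Genes at the floor at 1 time enter these medians, so they are partly bounds. The lists were chosen with earlier results of these data known.

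Among the effectors, the proteins that act in the stressed cell, 8 of 50 genes were on the array under their own name and 6 passed the filter. COR27 fell at 24 h, HVA22C rose, and AT1G54410 and AT4G33980 did not pass. The dehydrin gene LTI30 (AT3G50970) read 6.55 and 6.53 at 0 h and lay below the floor in culture, a difference of at least 3.13-fold, with no test. COR27 (AT5G42900), a cold-regulated gene that also acts in the circadian clock, read 8.80 and 8.55 at 0 h, 6.45 and 6.90 at 24 h and 8.0 and 7.60 at 48 h, glucose before sucrose. It fell by 2.00 ± 0.31 at 24 h (adjusted p = 0.0075 in limma) and differed by -0.88 ± 0.31 at 48 h (adjusted p = 0.071).

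AT1G54410, the gene of the dehydrin HIRD11, differed by -0.72 ± 0.31 at 24 h and 0.95 ± 0.31 at 48 h (adjusted p = 0.111 and 0.058 in limma), and its 48 h signals of 10.08 in glucose and 8.83 in sucrose were above both 0 h signals (8.64 and 8.37). HVA22C (AT1G69700), of the HVA22 family, rose by 0.79 ± 0.24 and 1.07 ± 0.24 (adjusted p = 0.046 and 0.020 in limma), although its signal on the sucrose 0 h array was under the floor. As deposited, its glucose and sucrose 0 h signals (5.05 and 4.51) were both below those arrays' median background controls (5.88 and 5.37), so the size of the rise is not exact.

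Of 41 upstream regulators of the cold pathway, 5 had a named probe set, and all 4 that were tested fell at both times in limma, beside 19.8% and 19.9% of all tested probe sets called lower. The CBF genes themselves had none and were not analysed here. STZ, a cold- and salt-induced repressor, fell by 3.67 ± 0.20 at 24 h and 5.57 ± 0.20 at 48 h (adjusted p = 0.0018 and 0.00097 in limma), beside differences of -3.81 and -5.61 for KIN2. PIF7 (AT5G61270), a phytochrome-interacting factor that represses CBF genes, read 9.66 and 10.13 at 0 h. In culture PIF7 was above the floor on the sucrose 24 h array alone, by 0.03. It thus passed the filter almost only through 0 h, and its place among the 4 that fell carries little weight. Set against the floor, it was at least 32.0-fold lower at 48 h. EIN3 (AT3G20770), the ethylene pathway's main factor and a repressor of CBF genes, fell by 1.1 ± 0.17 and 1.17 ± 0.17, and SIZ1 (AT5G60410), a SUMO ligase that stabilises the CBF activator ICE1, by 1.25 ± 0.19 and 1.06 ± 0.19.

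Of 47 ABA signalling genes and 18 of ABA metabolism and transport, 1 each was measured. ABR1 (AT5G64750), an ethylene response factor named as a repressor of the ABA response, read 12.45 and 12.43 at 0 h, 6.06 and 5.54 at 24 h, and 7.30 in glucose and 4.96 in sucrose at 48 h. It fell by 6.64 ± 0.45 and 6.31 ± 0.45 (adjusted p = 0.0019 and 0.0013 in limma). AT5G52050, known as DTX50, a transporter that carries ABA out of cells, fell by 4.28 ± 0.28 at 24 h and was at least 45.2-fold lower at 48 h (adjusted p = 0.0019 and 0.0010).

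**Figure D5:**
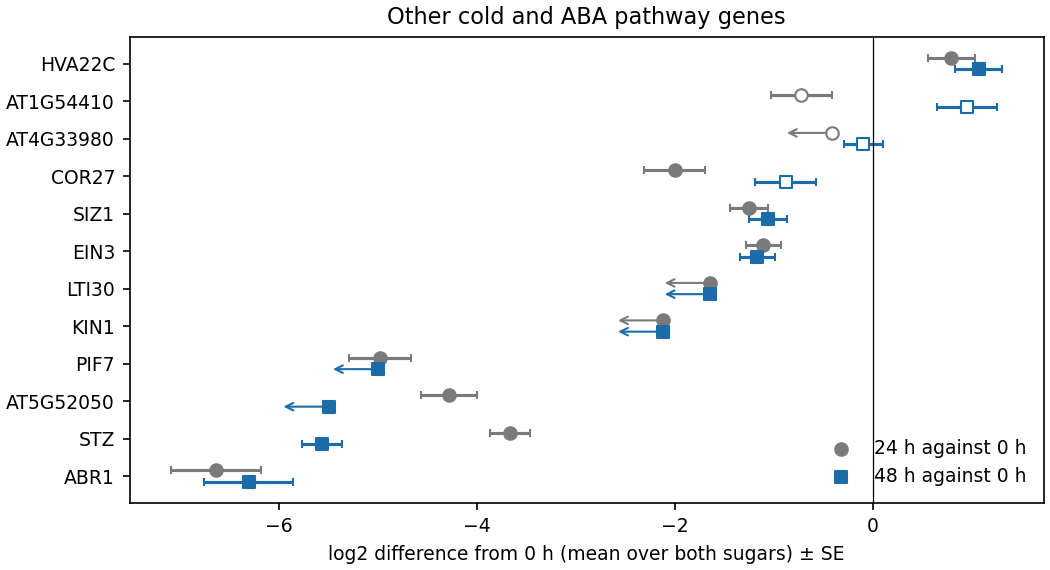
Log2 difference from 0 h (horizontal axis, mean over both sugars, bars ± SE) of the 12 tested genes of the cold and ABA lists, circles at 24 h and squares at 48 h, filled where the adjusted p passed. Arrows in place of bars mark bounds, where both later arrays lay at the floor. KIN1 and LTI30 are bounds that passed the filter only through 0 h. Of the other 10 genes 7 at 24 h and 6 at 48 h passed as lower, and HVA22C as higher. PIF7, counted as lower at both times, was above the floor in culture on the sucrose 24 h array alone.

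Markers of other cell types were sparse. Of 8 guard cell markers 3 were measured: MUTE was below the floor on all 6 arrays, SPCH was above it on the 0 h arrays alone, and FMA read from 6.50 to 7.91 and fell by 1.15 ± 0.31 at 48 h (adjusted p = 0.034 in limma). The list's summed linear signal was 277 and 315.6 at 0 h and from 108.7 to 258.2 in culture. Of 6 root markers 2 were measured, with a sum of 62.1, 147.9 and 256.1 in glucose and 86.9, 35.2 and 128.4 in sucrose at 0, 24 and 48 h. One of them, PYK10, rose by 1.81 ± 0.37 at 48 h (adjusted p = 0.015 in limma), and EXPA7 did not pass. As deposited, the glucose and sucrose 0 h signals of PYK10 were 5.18 and 5.46. Median background controls of those arrays were 5.88 and 5.37, so the size of the rise is not exact. Of 15 vascular markers only SWEET11 was measured, and it fell by 3.18 ± 0.41 at 24 h (adjusted p = 0.0050). The part of cell type shifts in the falls was not tested.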

How the data were processed

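Every array has 1 deposited signal for each probe set, which the authors made with GCOS per the submitters' processing notes. The sources used here do not give the background correction, the normalization or the log base. The deposited signals were read as log2 because the largest is 14.2. Per the labels' protocols, RNA was amplified before labelling with biotin. Of 38408 probe sets, 98 were controls; the platform table paired 16722 with 1 gene, and 16574 matched RefSeq (TAIR10.1), which supplied symbols and gene order.

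Each array was scaled to the mean of the arrays' 2% trimmed linear means, values were raised to the floor, and a probe set had to exceed it on 2 or more arrays, which left 25826 for testing. In limma 3.58.1 (R 4.3.3; intensity trend, two-sided, Benjamini-Hochberg at 0.05 over all tested probe sets) a model of 4 coefficients held a mean per time and a sugar term for the cultured arrays (2 residual degrees of freedom, 3.24 from the prior), and takes the 0 h pair as free of a sugar effect. With 5 coefficients, each cultured array had its own (1 residual degree of freedom). Nothing in the labels tells separate cultures apart, so the p-values reflect only how far these arrays spread, possibly for technical reasons. On simulated data for 24 h against 0 h (25826 probe sets), 97.0% of changes of 2 and 23.9% of changes of 1 on the log2 scale were recovered. The number of arrays limits the precision.

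The genes and lists were chosen with earlier results of these data known. The named genes were the 4 COR genes, the tested list members past the threshold (up to 12 per list) and the 5 nearest profiles of each COR gene above the floor on at least 4 arrays; list members that did not pass, markers of other cell types, and neighbours were added.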

Additional observations from a re-analysis of the deposited data

How the results depend on the processing

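Under the 9 other settings of scaling, floor, prior and sugar term, COR15A and KIN2 stayed lower than at 0 h and past the threshold. So did COR47, apart from the floor at the 60th percentile. All cultured COR47 values were under that floor, so there it passed the filter only through 0 h and is a bound. COR15A ranged from -4.00 to -3.16 at 24 h and from -7.29 to -5.96 at 48 h, and COR15B, a bound, from -5.13 (no floor) to -1.71 (floor at the 60th percentile) at 24 h. With 1 array left out at a time, 1 array is left at that time, so the counts of calls are only a description. Among COR15A, COR47 and KIN2 the number called ranged from 0 to 3 at 24 h against 0 h. It ranged from 0 to 3 at 48 h against 0 h, and from 0 to 2 for 48 h against 24 h. COR15B is not counted, and without either 0 h array it was not among the tested genes. With no floor and no filter, 1 gene (COR15A) passed for 48 h against 24 h. With the floor at the 60th percentile, COR15A alone (1 gene) passed for sucrose against glucose at 24 h (adjusted p = 0.047 in limma). It also passed for 48 h against 24 h in glucose (0.048) and in sucrose (0.021), with both 48 h values under that floor. Of 18343 tested probe sets, 1168 were then called higher and 1748 lower in glucose, and 1448 and 1128 in sucrose. Spike control scaling, added after seeing the data, gave 1 gene for 48 h against 24 h in glucose (KIN2, adjusted p = 0.025) and 1 in sucrose (COR15A, 0.042). Beside them, of 26172 tested probe sets, 1347 were called higher and 2973 lower in glucose, and 3095 and 1242 in sucrose. The cause was not tested. Over all probe sets spike control scaling gave 11506 higher and 2058 lower at 24 h against 6248 and 5120, and 10958 and 2356 at 48 h against 5715 and 5137. Deposited signals gave 8019 and 3881 at 24 h, 6718 and 4361 at 48 h. Where no probe set was called, other settings called some. For sucrose against glucose at 24 h these were 870 higher and 784 lower with the 60th percentile floor, and 2079 and 1442 with spike control scaling. At 48 h the 60th percentile floor gave 1745 higher and 709 lower, and spike control scaling 4257 and 704. COR15A, COR47 and KIN2 were not among the calls at 48 h. For 48 h against 24 h there were 108 higher and 61 lower with no floor. Leaving out either 0 h array also brought calls for that comparison. In limma 0 were called at 24 h without the glucose or the sucrose 24 h array (8758 and 10707 with an unadjusted p under 0.05), and 0 at 48 h without the glucose or the sucrose 48 h array (10404 and 8744). No paired analysis was possible because no group has a second array and the labels carry no replicate numbers. A sugar term over all 6 arrays changed no call of COR15A, COR47 and KIN2. Signals near the floor limit COR15A at 48 h and COR15B throughout culture.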

Other observations

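The 0 h arrays, which the models treat as alike, differed for some genes related to the COR genes. COR15B read 8.61 on the glucose and 7.74 on the sucrose 0 h array, a difference of -0.87 on the log2 scale. KIN1 differed by -0.64, and the LEA gene LEA18 (AT2G35300), above the floor on the glucose 0 h array alone, was lower on the sucrose array by at least 1.13 against the floor. As deposited, the LEA18 signals on the glucose and sucrose 0 h arrays (5.84 and 4.44) were below those arrays' median background controls (5.88 and 5.37). The LEA18 difference is therefore between 2 low signals and is not exact. COR47 (-0.30), KIN2 (-0.18), COR15A (0.03) and LTI30 (-0.02) differed by less. Among all 25826 tested probe sets this difference had a median of 0.0, with 5% below -0.69. The genes were chosen after their values were seen, and with 1 array per sugar the difference has no replicate check.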
